A study of Mus musculus with 4 samples.

Results

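The EGF-like ligands and the ERBB receptors were followed as 10 genes: the ligand genes Areg, Ereg, Epgn, Btc, Egf, Tgfa, Hbegf and Nrg1 and the receptor genes Egfr and Erbb2. Their members here are chromatin loops, pairs of distant sites whose contact count exceeded the local expectation. A loop was taken when an anchor (an end of the loop) lay within 10 kb of one of these genes, or when the loop spanned under 500 kb and enclosed the gene. This gave 66 loop calls of 30437 in all. Calls of different libraries whose anchor midpoints lay within 20 kb on both sides were joined, which gave 28 distinct loops of 12920.

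The loops came from Micro-C, which cuts chromatin with micrococcal nuclease and joins sites that lie close together, in granulosa cells collected from punctured ovaries of 21-day-old mice. All mice had received 5 IU of eCG (PMSG), a gonadotropin that drives follicle growth, for 46 h according to the sample characteristics or 44 h according to the protocol. The PMSG group was taken at 0 h of hCG, and the hCG group was taken 6 h after 5 IU of hCG, which acts on the receptor of luteinizing hormone (LH). There were 2 libraries per group. The sources used here do not give the strain or the number of mice behind a library. Samples were prepared with technical replicates, and nothing says that the 2 libraries of a group came from separate animals, so p-values measure the spread between libraries, which can be technical in part.

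In the follicle, the LH surge is sensed by mural granulosa cells, which then make the EGF-like factors amphiregulin (Areg), epiregulin (Ereg) and betacellulin (Btc). These are shed from the cell surface, bind EGFR on granulosa and cumulus cells, and drive cumulus expansion and oocyte maturation through the ERK cascade. Epgn, Ereg, Areg and Btc are neighbours on mouse chromosome 5. A chromatin loop can bring a gene close to distant regulatory sites or mark the edge of a domain, and a loop list carries no RNA level.

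The lists held 6533 to 8305 loops, and the contacts at called pixels summed to 272470 to 393852 per library, with PMSG replicate 1 highest and PMSG replicate 2 lowest in both. At 1366 loops matched across all lists, the expected contacts relative to PMSG replicate 1 were 0.582 in the other PMSG library and 0.573 and 0.724 in hCG replicates 1 and 2. Calls were made in each library apart, so a loop that a list lacks had no pixel passing the caller there, and its contact count is unknown. Of the granulosa marker genes, 8 of 8 had a loop anchor within 10 kb in at least 1 list, as did 4 of 4 theca and stroma, 2 of 3 endothelial, 3 of 3 immune and 1 of 3 oocyte markers. Without RNA levels these counts do not test the labelled cell type.

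Loops at the EGF family numbered 17 in PMSG replicate 1, 15 in PMSG replicate 2, and 17 in each hCG library. The groups shared the value 17, and the means were 16 ± 1.41 (SD, n = 2) before and 17 ± 0 (SD, n = 2) after hCG. The exact two-sided permutation test gave p = 1, where 0.33 is the smallest p that 2 against 2 libraries allow. Per 1000 loops of a list the values were 2.05, 2.30, 2.22 and 2.14, which also overlapped. The number of loops therefore differed by less than the spread between libraries. The positions of the called loops differed at 3 neighbouring ligand genes and at Egfr. How far they did depended on the matching, the FDR limit and the list length, as given below.

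Of the 28 distinct loops, 7 (25%) were in both hCG lists and no PMSG list, termed hCG-only here, where 5.05% of all distinct loops were. In the reverse class, PMSG-only, were 4 (14.3%), where 3.80% of all distinct loops were. A further 6 were in all 4 lists, 5 in lists of both groups without being in all, and 6 in 1 list. Several of these loops share an anchor, so they are not independent, and the shares are given with no test. Without PMSG replicate 2, which had the fewest loops, 7 of 26 distinct loops at the family counted as PMSG-only, where 17.4% of all distinct loops did, since a call in 1 PMSG list then sufficed.

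**Figure D1:**
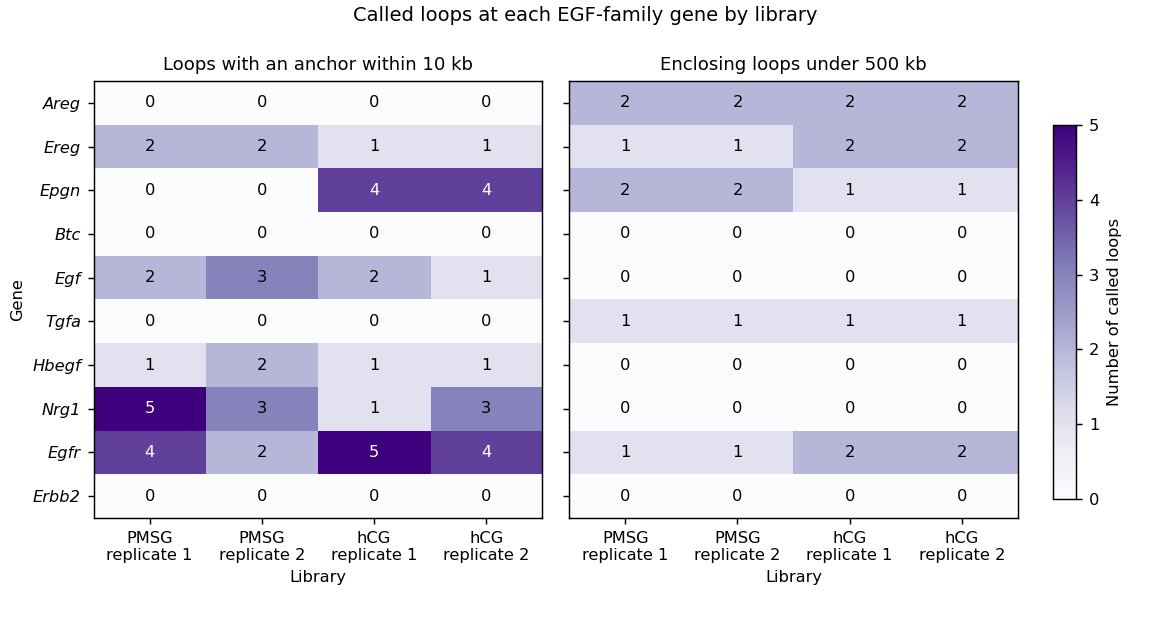
Number of called loops at each EGF-family gene (rows) in each library (columns), for loops with an anchor within 10 kb of the gene (left) and for enclosing loops under 500 kb (right); the colour and the printed figure both give the count. Epgn has 0 anchored loops in either PMSG library and 4 in both hCG libraries, and Btc and Erbb2 have no loop.

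The 3 genes with the clearest difference were Epgn, Ereg and Areg, which lie side by side within the same loops on mm10 chromosome 5. Epgn occupies chr5:91027517-91035212, Ereg chr5:91074617-91093649 and Areg chr5:91139599-91148432. All 8 distinct loops at these genes were confined to 1 group: 5 were hCG-only and 3 PMSG-only. At the other members, 20 distinct loops held 2 hCG-only and 1 PMSG-only.

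Epgn encodes epigen, an EGFR ligand. Loops with an anchor at Epgn numbered 0 and 0 in PMSG replicates 1 and 2, against 4 and 4 in hCG replicates 1 and 2. The groups did not overlap. Over all genes with a loop, 7.68% had more anchors in both hCG lists than in either PMSG list. With lists of equal length the mean difference at Epgn, enclosing loops included, was 2.5 loops in place of 3. Whether depth played a part was not tested. In both PMSG libraries Epgn instead lay inside 2 enclosing loops, and the nearest anchor was 44.8 and 34.8 kb away.

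The shortest of the Epgn loops joined Epgn to Ereg. Its anchors were chr5:91035001-91040000, which holds the last 212 bases of Epgn by coordinate, and chr5:91070001-91075000, which holds 384 bases at the lower-coordinate end of Ereg. It spanned 35 kb and was called at the identical 5 kb pixel in both hCG libraries, with 30 contacts in replicate 1 and 23 in replicate 2. Contacts were 5.43 times (95% Poisson interval of the count 3.66 to 7.75) and 4.01 times (2.54 to 6.01) the donut expectation, which is the level in a ring around the pixel. The intervals overlapped between the replicates. These intervals cover counting error only, not the spread between libraries, and take no account of any PCR copies among the contacts. This loop stayed hCG-only under all 5 other ways of matching and filtering the lists that were tried.

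From the same Epgn anchor another loop ran 270 kb to chr5:91305001-91310000, a site that overlaps no gene. It held 19 contacts in each hCG library, 6.29 times (3.78 to 9.82) and 5.87 times (3.53 to 9.16) the expectation. A loop of 355 kb joined that site to chr5:90950001-90955000, within the gene Mthfd2l, with 14 contacts in each hCG library and ratios of 8.11 (4.43 to 13.6) and 7.39 (4.04 to 12.4). The counts of both loops were the same in the 2 hCG libraries, and the ratios lay within each other's intervals.

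On its other side Epgn was joined to Mthfd2l, an enzyme gene of mitochondrial folate metabolism. A loop of 50 kb in hCG replicate 1 (47 contacts, ratio 2.66) and 60 kb in hCG replicate 2 (59 contacts, ratio 3.46) ran from chr5:90980001-90990000 and chr5:90970001-90980000 to chr5:91030001-91040000. Sites within chr5:90970001-90990000 served as anchors in both groups, in 2, 2, 1 and 1 loops in the PMSG and then the hCG libraries. Another spanned 100 kb in hCG replicate 1 and 75 kb in hCG replicate 2, the latter with its anchor at chr5:91025001-91030000, which holds the start of Epgn. The replicates called this last loop in different bins: 92 contacts in 25 kb bins with a ratio of 1.90, and 17 contacts in 5 kb bins with a ratio of 7.10. It is the least secure of the Epgn loops, since it left the hCG-only class under all 5 other settings.

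Before hCG the same stretch was looped through Ereg, the epiregulin gene. Loops with an anchor at Ereg numbered 2 and 2 before hCG and 1 and 1 after it. The groups did not overlap, and the loop remaining after hCG was the Epgn to Ereg loop. Over all genes with a loop, 5.22% had more anchors in both PMSG lists than in either hCG list.

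To the left, a PMSG-only loop joined Ereg to chr5:90970001-90980000 in Mthfd2l. Its count was 33 contacts in PMSG replicate 1 over 110 kb (ratio 2.91, 2.00 to 4.08) and 35 in PMSG replicate 2 over 100 kb (ratio 3.43, 2.39 to 4.77). The 2 libraries differed by less than their counting error. To the right, Ereg was joined to the gene-free site near chr5:91300001-91310000, with 33 contacts in 10 kb bins over 220 kb in PMSG replicate 1 (ratio 3.05) and 110 contacts in 25 kb bins over 225 kb in PMSG replicate 2 (ratio 2.65).

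The outer sites were themselves joined by a PMSG-only loop of 330 kb that enclosed Epgn, Ereg and Areg. It was called at the identical pixel in both PMSG libraries, with 31 contacts (ratio 3.23, 2.20 to 4.59) and 27 contacts (ratio 4.06, 2.68 to 5.91). In the PMSG libraries these 3 loops joined 3 sites to each other: chr5:90970001-90980000 in Mthfd2l, Ereg and the gene-free site. In the hCG libraries the 5 loops ran over 2 sites in Mthfd2l, Epgn, Ereg and the gene-free site. There the loop from Epgn to the outer Mthfd2l site is the loop of 75 to 100 kb that left its class under all 5 other settings. The gene-free site was joined to Ereg before hCG and to Epgn after it.

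**Figure D2:**
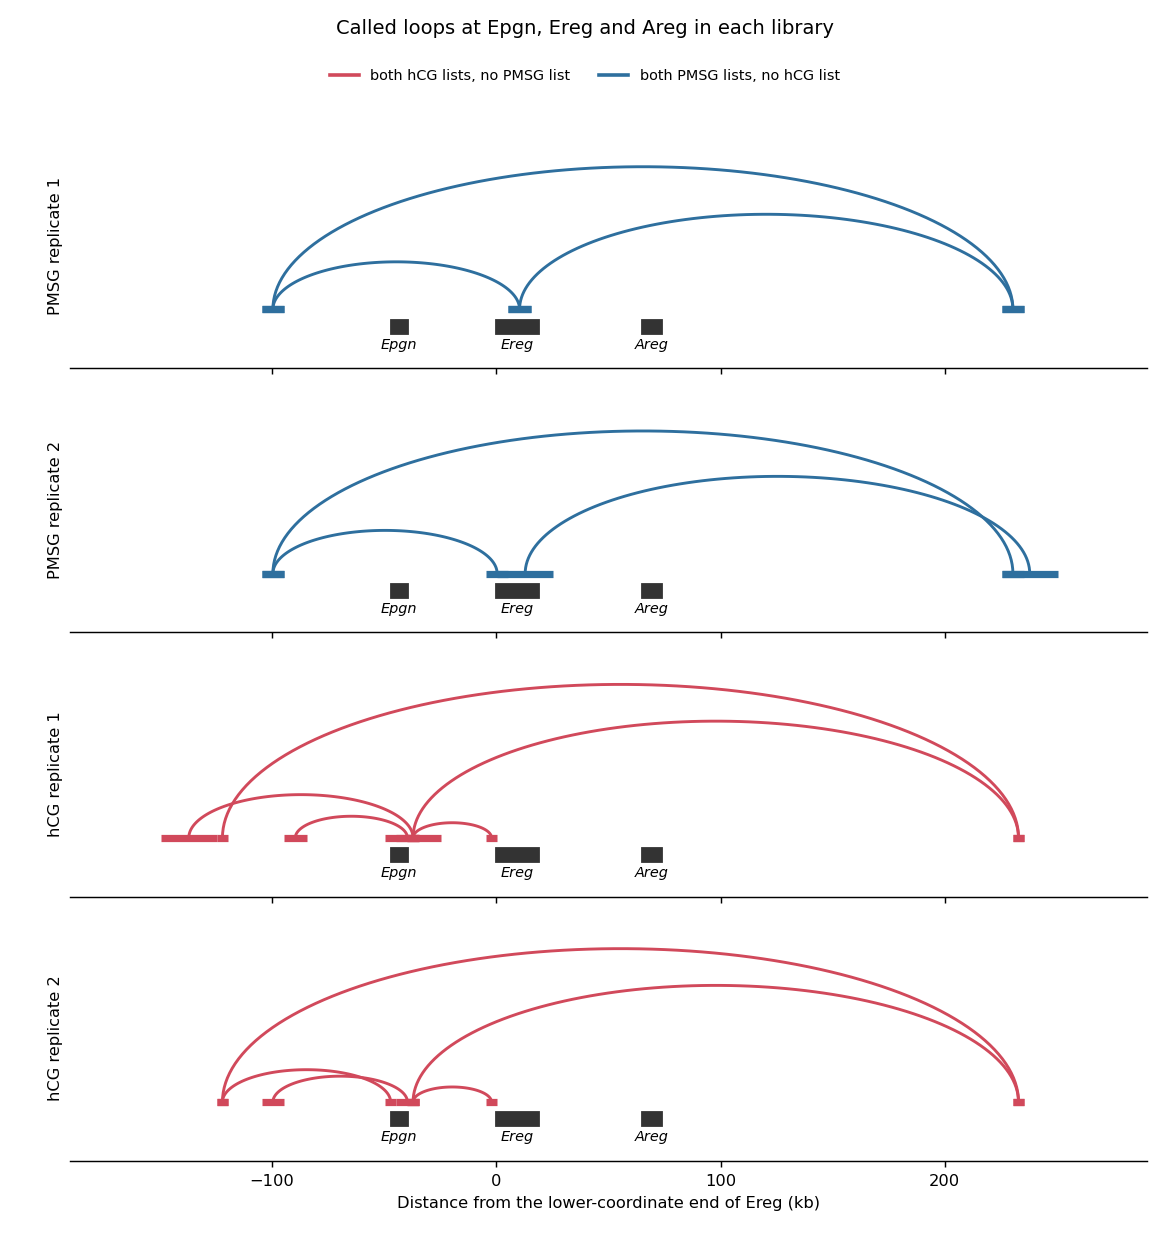
Arcs join the anchors of called loops at Epgn, Ereg and Areg in each library; thick segments at the base are the anchor bins, dark boxes the genes, and the horizontal axis the distance in kb from the lower-coordinate end of Ereg. The right-hand site is joined to Ereg in both PMSG libraries and to Epgn in both hCG libraries.

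For the outer loop, the anchors on the right lay closer together in the groups than those on the left. The midpoint of its right anchor differed by 2.5 kb, and that of its left anchor by 22.5 kb, which is just beyond the 20 kb allowed for a match. The Ereg anchor of the PMSG-only loop to the right site lay 47.5 kb from the Epgn anchor of its hCG-only counterpart. With a match distance of 50 kb these loops count as shared, and the cluster then had 1 hCG-only and 0 PMSG-only loops. With all 4 FDR values of each loop at most 0.01 it had 2 and 0. Beyond the difference in position, contacts at these loops cannot be compared between the groups, since no pixel was called in both.

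Areg encodes amphiregulin. It had no anchor within 10 kb in any list, and its nearest anchors lay 49.6, 39.6, 64.6 and 64.6 kb away in PMSG replicates 1 and 2 and hCG replicates 1 and 2. It was enclosed by 2 loops in each library. Those were the 220 to 225 kb and 330 kb loops before hCG and the 270 kb and 355 kb loops after it. The number enclosing Areg was thus equal, and the called positions differed.

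Other loops within 500 kb of the cluster did not divide in the same way. Of 7 distinct loops there, 3 were in all 4 lists, 0 were hCG-only and 1 was PMSG-only. The shares of these classes over all distinct loops were 29.9%, 5.05% and 3.80%. The PMSG-only loop joined chemokine genes, from Cxcl3 and Cxcl15 to Cxcl2, with 80 and 93 contacts in 25 kb bins. In hCG replicate 2 a loop ran from the same left bin to the bin next to the right anchor, with 121 contacts. In hCG replicate 1 a loop lay a bin over on both sides, with 118 contacts. A shift of 1 such bin exceeds the 20 kb allowed for a match, so neither could match the PMSG-only loop.

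Counted over all genes, a gap as large as that of Epgn was rare. Of 12367 genes with a loop in any list, 950 (7.68%) had more anchors in both hCG lists than in either PMSG list. A gap of at least 4 loops between the groups was found at 2 genes, Epgn and Ext1, a heparan sulfate polymerase gene with 2, 1, 7 and 6 loops in the PMSG and then the hCG libraries. Epgn was the 1 gene with 0 in both PMSG lists and at least 4 in both hCG lists. These limits are the values of Epgn itself, which was taken as the member with the largest gap. The counts are therefore descriptive and are no test. With enclosing loops included, the mean difference at Epgn was 3 loops. It was 2 with all FDR values at most 0.01 and 2.5 with lists of equal length. The next most similar by the size of the gap, 3 loops, were Col4a1, Cwc27, Fmnl2 and Plpp3 in alphabetical order, with Tanc2 tied.

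The promoter sequences of Epgn and Areg are shown because loop anchors were called at Epgn in the hCG lists alone, while Areg lay inside the loops in every list. The Epgn promoter lies within a loop anchor only at the 75 to 100 kb loop, the least secure one, and the anchors of the other Epgn loops lie past the start. Each is the 250 bases before the annotated RefSeq start (GRCm38.p6, plus strand), chr5:91027267-91027516 for Epgn and chr5:91139349-91139598 for Areg. Capitals mark matches to the motifs named after the sequences.
Epgn: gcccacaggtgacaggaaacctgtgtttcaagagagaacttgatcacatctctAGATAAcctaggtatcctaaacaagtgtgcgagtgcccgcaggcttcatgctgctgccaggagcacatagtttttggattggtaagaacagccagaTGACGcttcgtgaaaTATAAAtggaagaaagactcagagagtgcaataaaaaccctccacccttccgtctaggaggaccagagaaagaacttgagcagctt
Areg: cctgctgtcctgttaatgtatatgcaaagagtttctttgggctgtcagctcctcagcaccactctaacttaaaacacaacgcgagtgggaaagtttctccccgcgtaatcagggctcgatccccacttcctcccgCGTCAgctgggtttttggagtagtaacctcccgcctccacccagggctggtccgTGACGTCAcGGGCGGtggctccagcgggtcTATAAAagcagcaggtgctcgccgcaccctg
The motifs were searched on both strands. The cAMP response element (CRE) was taken as TGACGTCA and its short core as TGACG. The letters used for the AP-1 factors were TGANTCA, for the C/EBP factors TTGCNNAA, for the RUNX factors TGTGGT and for the NR5A receptors AAGGTCA. Those used for the GATA factors were AGATAA, for the GC box GGGCGG, for the promoter element named the TATA box TATAAA, and for part of the CTCF site AGGGGGC.

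Areg held a full CRE 61 bases before its start, a motif found in 1.55% of 32851 promoters of the same length. The full CRE overlaps a short core on each strand, and a further short core lay 115 bases before the start. Areg also held a GC box at 52 bases (32.7% of promoters) and a TATA box at 31 bases (12.4%). Epgn held a GATA match at 197 bases (9.99%), a CRE short core at 101 bases (17.8%) and a TATA match at 86 bases. Such matches describe the letters alone. Promoters were found in the table for 7 of the 10 genes.

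Btc, the betacellulin gene at chr5:91357261-91402994, lies beyond the right-hand site of these loops. It had no loop in any list and was enclosed by none. The nearest anchor was 47.3 kb away in PMSG replicate 1 and both hCG libraries and 32.3 kb away in PMSG replicate 2, and in each case it was the gene-free site of the Epgn, Ereg and Areg loops.

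Egfr, the receptor through which the ligands of this cluster signal, spans chr11:16752203-16913907. Loops with an anchor at Egfr numbered 4 and 2 before hCG and 5 and 4 after it. Enclosing loops numbered 1, 1, 2 and 2. The anchored counts overlapped between the groups, and the enclosing counts did not. That separation rests on the counting rule. In PMSG replicate 1 a loop of 200 kb also enclosed Egfr, but it was counted as anchored, with an anchor 2203 bases away. Counted by enclosure alone, at any span, the numbers were 2, 1, 2 and 4, which overlapped. No share over all genes was counted for enclosing loops. In all, 8 distinct loops lay at Egfr, of which 2 were hCG-only, 1 was PMSG-only and 2 were in all 4 lists. Without PMSG replicate 1, 4 of 8 counted as hCG-only, where 12.3% of all distinct loops did, up from 5.05%.

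Within the gene, the called partner of the start region differed. In the PMSG libraries chr11:16750001-16775000, which holds the start, was joined to chr11:16850001-16875000 over 100 kb, with 214 contacts (ratio 1.92, 1.67 to 2.19) and 144 contacts (ratio 2.09, 1.76 to 2.46). In the hCG libraries the start was joined to chr11:16800001-16810000 over 50 kb, with 39 contacts (ratio 2.45, 1.74 to 3.35) and 46 contacts (ratio 2.57, 1.88 to 3.43). The inner partners were 57.5 kb apart. The first loop was in 25 kb bins and the other in 10 kb bins, so their counts and ratios are not on the same footing. Both left their class when all lists were shortened to equal length by contact ratio, and kept it under 4 of 5 settings.

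The other hCG-only loop enclosed the whole gene. It joined chr11:16620001-16630000, 122 kb before Egfr and in no gene, to chr11:16940001-16950000 near Fbxo48. Both hCG libraries gave 29 contacts at the identical pixel, with ratios of 3.84 (2.57 to 5.51) in each. The class held under all 5 other settings. This loop and the Epgn to Ereg loop were the 2 hCG-only loops of the family that kept their class under all 5 settings.

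Anchors within chr11:16610001-16650000, a site upstream of Egfr chosen after its values were seen, were found in hCG lists alone, in 0, 0, 3 and 2 loops in the PMSG and then the hCG libraries. No share over all anchor sites was counted, so how common such a site is stays unknown. The site farther upstream, chr11:16500001-16550000, took part in 2, 1, 3 and 4 loops, so lists of both groups held it. In hCG replicate 1 the loops at the nearer site, chr11:16610001-16650000, included 1 of 125 kb to the Egfr start. It had 111 contacts and a ratio of 2.01, and no other list held it. Among the 4 other distinct loops within 500 kb of Egfr, 2 were hCG-only and 2 were in 1 list, with 0, 0, 2 and 4 calls. Over all distinct loops 5.05% were hCG-only and 40.0% in 1 list. No share over all loci was counted for such a difference in calls. The 320 kb loop stayed hCG-only with lists of equal length. How far list length shaped the other calls here, or depth any of them, was not tested.

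Against these stood loops that all lists shared. The outer loop of 420 to 425 kb around Egfr held 20, 36, 16 and 22 contacts in the PMSG and then the hCG libraries, with ratios of 8.48, 5.81, 6.08 and 8.96. A site at or near the start of Egfr was joined to the Fbxo48 side over 175 to 200 kb with ratios of 3.08, 2.50, 2.57 and 3.20. Its anchor held the start in PMSG replicate 2 and hCG replicate 1. It lay 2203 bases outside the gene in PMSG replicate 1 and 7798 bases past the start in hCG replicate 2. In both loops the values of the groups overlapped, and the lower ratios went with larger bins in all cases but hCG replicate 1 of the outer loop. The 2 loops found in 3 lists, 225 kb long from the start to the left and 45 to 50 kb long at the far end, were missing from PMSG replicate 2, the smallest list.

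**Figure D3:**
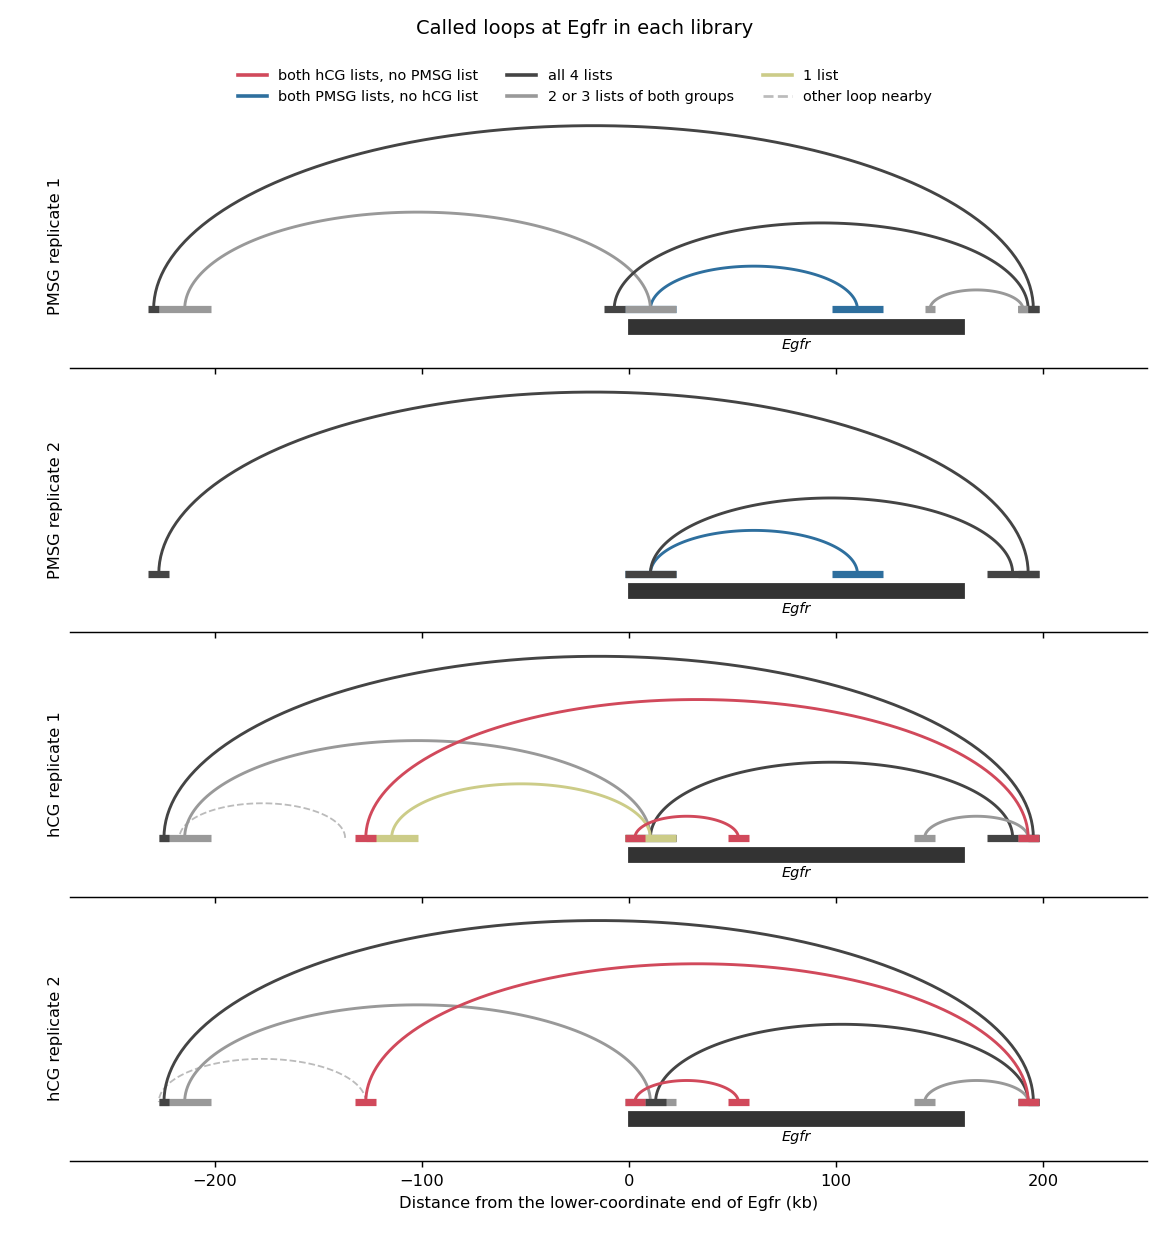
Arcs join the anchors of called loops around Egfr in each library, coloured by the lists that hold the loop; the horizontal axis gives the distance in kb from the lower-coordinate end of Egfr, and dashed arcs are nearby loops outside the selection. The blue arc inside the gene in the PMSG libraries has no called counterpart in the hCG libraries, where a shorter red arc and a red arc enclosing the gene were called. Contacts at a loop that a list lacks are unknown.

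The Egfr promoter is shown because the start lies inside loop anchors in every library. It is chr11:16751953-16752202 on the plus strand, with capitals as above.
Egfr: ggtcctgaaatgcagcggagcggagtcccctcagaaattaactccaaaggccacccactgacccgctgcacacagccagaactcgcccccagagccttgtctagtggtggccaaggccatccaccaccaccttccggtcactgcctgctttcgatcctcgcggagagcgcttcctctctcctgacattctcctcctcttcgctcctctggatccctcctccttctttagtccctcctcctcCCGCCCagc
It held 1 match, a GC box on the opposite strand 9 bases before the start, and none of the other motifs.

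Erbb2, the receptor partner without a known ligand of its own, lies at chr11:98412484-98437716. It had no loop in any list and was enclosed by none. Its nearest anchors were 12.5 and 302 kb away in the PMSG libraries and 37.5 and 12.5 kb away in the hCG libraries, so the groups overlapped. The anchor at 12.5 kb lay just outside the 10 kb limit, and the anchor at 9.20 kb from Hbegf just inside it.

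Egf, the founding ligand of the family, was joined to a site at Enpep, an aminopeptidase gene, in all 4 lists. The loop spanned 380 to 385 kb, and its Egf anchor was chr3:129685001-129690000, inside the gene near its far end, since Egf (chr3:129677574-129755322) is read on the minus strand. It held 27 and 22 contacts before hCG and 21 and 23 after it, with ratios of 8.81, 9.64, 9.80 and 8.45. The groups overlapped. In edgeR's quasi-likelihood test over 1366 matched loops, hCG over PMSG was -0.02 on the log2 scale (SE 0.27, adjusted p = 0.99). In that test 0% of loops passed an adjusted p of 0.05, and 91 had an unadjusted p below 0.05. DESeq2 called 0 as well, with 5 below 0.05 unadjusted. Leaving out PMSG replicate 2 gave 12 edgeR calls over all matched loops, and leaving out either hCG library gave 2.

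Egf also had a loop of 160 to 175 kb to Elovl6, a fatty acid elongase gene. It held 35 and 25 contacts in the PMSG libraries in 10 kb bins and 92 in hCG replicate 1 in 25 kb bins, and hCG replicate 2 lacked it. A loop of 250 kb was in the PMSG replicate 2 list alone.

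Hbegf, which encodes heparin-binding EGF, had a loop of 120 to 125 kb in all 4 lists, to a site at the border of Cystm1 and Pfdn1. Its near anchor lay 4.20 kb beyond the gene in the PMSG libraries and 9.20 kb beyond it, towards Slc4a9, in the hCG libraries. It held 41 and 25 contacts before and 16 and 26 after hCG, with ratios of 7.16, 9.13, 6.12 and 6.92. Both hCG ratios were below both PMSG ratios, and the intervals of all 4 overlapped. The fitted difference was -0.24 on the log2 scale (SE 0.27, edgeR adjusted p = 0.90), within the error, and it turned to 0.056 when the horizontal expectation replaced the donut. A loop of 300 kb from Hbegf to Nrg2, another ligand gene of the family, was in PMSG replicate 2 alone (45 contacts, ratio 2.83).

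Tgfa, which encodes transforming growth factor alpha, had no anchor within 10 kb and was enclosed by 1 loop in each list. The loop spanned 210 to 235 kb between the side of Add2 and Fam136a, with 54 and 27 contacts before and 16 and 18 after hCG and ratios of 3.78, 3.29, 6.18 and 5.98. The ratios did not overlap, but the PMSG calls were in 10 kb bins and the hCG calls in 5 kb bins, so the difference cannot be told apart from bin size.

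Nrg1, which encodes neuregulin 1 and binds ERBB3 and ERBB4, is the longest of the genes at chr8:31807452-32891609. Its anchored loops numbered 5, 3, 1 and 3, which overlapped between the groups. A loop of 475 to 500 kb was in all 4 lists, with ratios of 4.0, 2.79, 2.55 and 4.24. A loop of 890 to 900 kb (19, 45 and 15 contacts) was missing from hCG replicate 1, and 3 loops of 200, 375 and 1175 kb were in PMSG replicate 1 alone. A loop of 725 kb was in PMSG replicate 2 (45 contacts) and hCG replicate 2 (38 contacts).

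**Figure D4:**
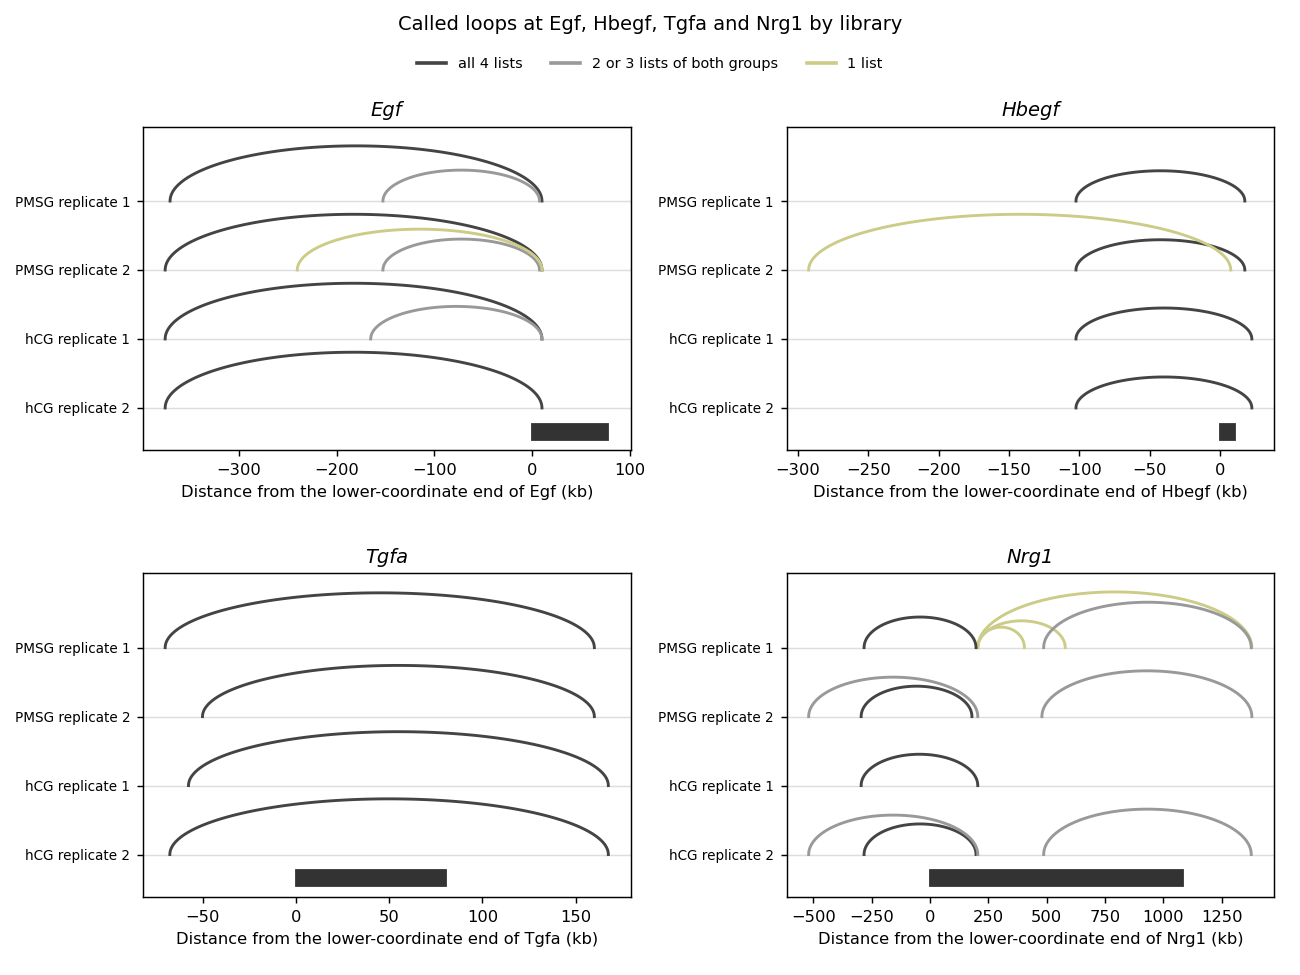
Arcs join the anchors of called loops at Egf, Hbegf, Tgfa and Nrg1, with 1 line per library and the gene as a dark box; the horizontal axes give the distance in kb from the lower-coordinate end of each gene. The black arcs, loops in all 4 lists, are present at each gene, and no loop is confined to both libraries of 1 group.

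**Figure D5:**
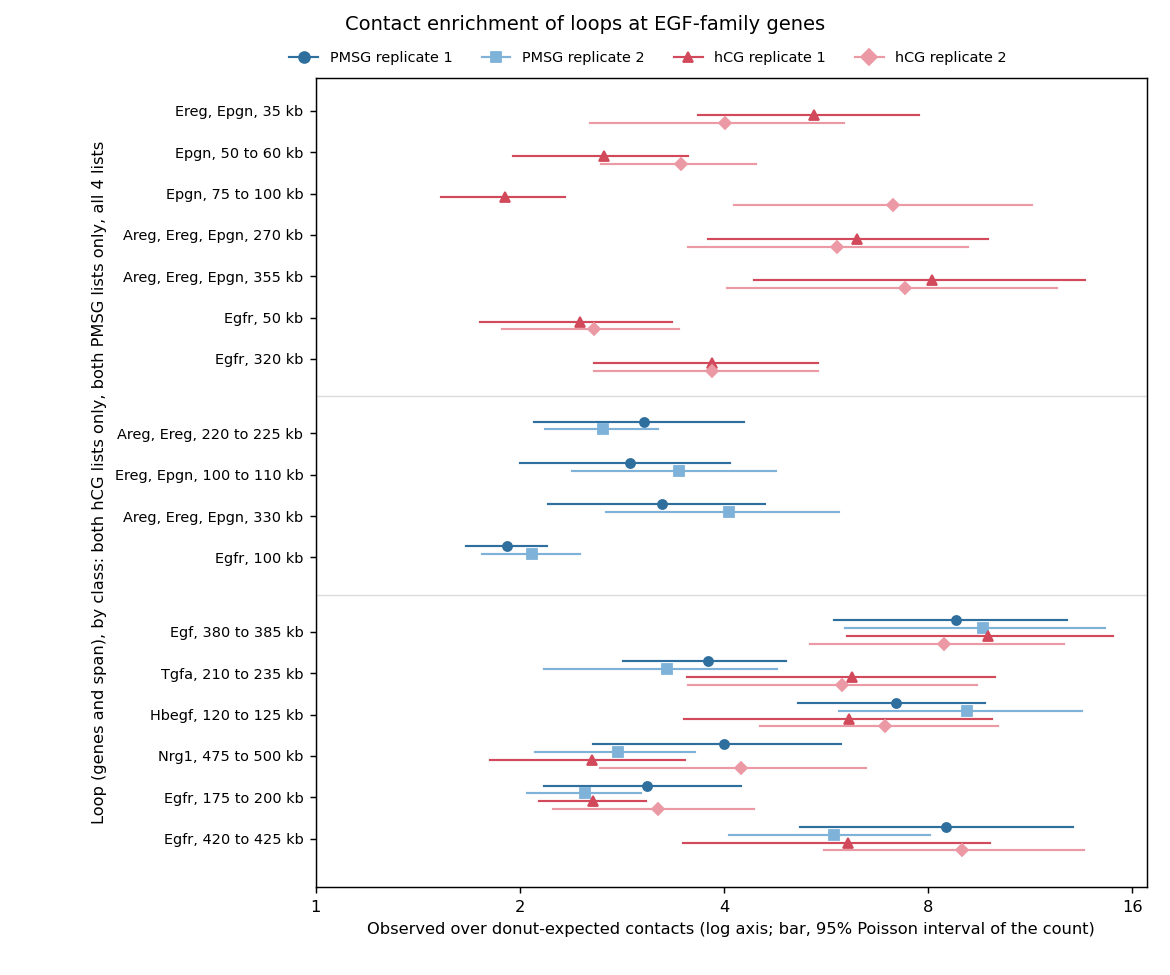
Observed over donut-expected contacts (log axis) for the hCG-only loops, the PMSG-only loops and the loops in all 4 lists, named by gene and span; points are libraries and bars the 95% Poisson intervals of the counts. The Egf loop to Enpep has ratios of 8.45 to 9.80, the Egfr loop of 100 kb ratios of 1.92 and 2.09.

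Other genes of the pathway gave a wider view. Of 33, 28 had an anchor within 10 kb in some list, and 5 had more in both hCG lists than in either PMSG list, while 3 had more in both PMSG lists. Over all genes with a loop the shares were 7.68% and 5.22%. An anchor of an hCG-only loop was found at 4 of the 28, where 9.47% of all genes with a loop had one. Among the brakes on the receptors these were Errfi1, which encodes the EGFR inhibitor MIG6 (0, 0, 1 and 1 loops in the PMSG and then the hCG libraries), and Cblb, a ubiquitin ligase gene (1, 1, 3 and 2). Among genes that build the cumulus matrix they were Has2, the hyaluronan synthase gene (0, 0, 1 and 1), and Tnfaip6, a hyaluronan-binding protein gene (0, 0, 2 and 1). Creb1, a cAMP-responsive factor gene, had 0, 0, 1 and 2.

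An anchor of a PMSG-only loop was found at 2 of the 28, where 6.70% of all genes with a loop had one. They were Adam10, a sheddase gene (2, 2, 0 and 1), and Lrig1, another inhibitor gene of the receptors (2, 1, 0 and 0). Ptx3, which encodes a matrix pentraxin, had 2, 2, 1 and 1. Of 11 adaptor and ERK cascade genes, 8 had a loop and 0 had a loop of either class. Erbb3 and Erbb4, the remaining receptor genes, had 1 loop in every library.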

How the data were processed

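Micro-C libraries of granulosa cells (2 PMSG, 2 hCG, grouped by title) were made with the Dovetail kit, with 2 to 3 technical replicates per sample, per the labels' protocols. BWA and Juicer with mm10 are named in the submitters' processing notes, and the lists were written by juicer_tools 1.22.01, per the file headers. The sources used here do not give the caller settings. Loops were called in each library in bins of 5, 10 and 25 kb.

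The deposited lists give the observed contact count, not normalized, the authors' expected contact signal from 4 local neighbourhoods, and a q-value for each, all below 0.1. A deposited score, the number of collapsed pixels, was not compared. Ratios are observed over donut expectation; smaller bins hold fewer contacts. Positions are counted from 1, and gene positions and promoters are RefSeq's on GRCm38.p6.

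Named genes were the 10 members, partner genes within 10 kb of an anchor, 33 pathway genes by class, and up to 5 genes with the anchor gap most like that of the member with the largest gap. Members and lists were chosen with earlier results of these data known.

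Strength was tested with edgeR 4.0.16 in R 4.3.3, with the log donut expectation as an offset, Benjamini-Hochberg adjustment and DESeq2 1.42.0 as an alternative. The planned fit on 435 identical pixels held none at a member, so loops matched within 20 kb and called in 1 bin size in all lists were added after seeing the data. On counts simulated at the 1366 matched loops, 53% of 200 changes of 2-fold were recovered and 1.85% of calls were false. Python 3.11.15, pandas 2.3.3, scipy 1.17.1 and matplotlib 3.10.9 were used. Alternatives covered anchor distance, enclosing span, matching, FDR, list length, expectation, scaling, a replicate block and leaving out each library.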

Additional observations from a re-analysis of the deposited data

How the results depend on the processing

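Of 51 values of the main comparisons under alternatives, 33 were classed as unchanged and 18 as moved. For the difference in loop number, unchanged meant the same sign, so 0.5 and 2 against 1 counted as unchanged. For the other counts it meant an equal value or one within a set fold range. The difference of 1 loop between the groups over all members became 0 with enclosing loops limited to 250 kb or left out, and ran from 0 to 2 when each library was left out. The 7 hCG-only loops became 3 with a match distance of 50 kb and 4 with all FDR values at most 0.01, and the 4 PMSG-only loops became 1 under each. Leaving out each library gave 7 to 9 hCG-only and 5 to 7 PMSG-only loops, with 7 PMSG-only loops without PMSG replicate 2. The shares over all distinct loops rose as well, since 1 list of the reduced group then sufficed or 1 list fewer could hold the loop. The hCG-only share ran from 7.02% to 17.5%, against 5.05% with all libraries. The PMSG-only share ran from 7.04% to 17.4%, the latter without PMSG replicate 2, against 3.80%. Without PMSG replicate 1, Egfr had 4 hCG-only loops in place of 2, and the share over all distinct loops rose from 5.05% to 12.3%. No identical pixel was called by edgeR, with 29 below 0.05 unadjusted, or by DESeq2, with 1, and leaving out each library gave 0 to 2 edgeR calls. At matched loops the 0 calls became 3 with the bottom left expectation, 1 with the horizontal, 2 with the vertical and 3 with expectations of at least 5, a filter that removed the Egf and Hbegf loops. Leaving out each library gave 0 to 12 calls, with 12 without PMSG replicate 2, 2 without hCG replicate 1 and 2 without hCG replicate 2. The Egf difference of -0.02 turned to 0.097 with the bottom left expectation and ran from -0.12 to 0.095 when each library was left out, positive at 0.038 without PMSG replicate 2 and at 0.095 without hCG replicate 2. That of Hbegf, -0.24, turned to 0.056 with the horizontal expectation, was -0.45 with the bottom left expectation and -0.52 with TMM scaling (SE 0.25, adjusted p = 0.99), and ran from -0.47 to -0.12 when each library was left out. The cause was not tested. The median log2 difference over matched loops was 0.15 with the donut offset, -0.0031 with TMM scaling, -0.00080 without PMSG replicate 1, 0.26 without PMSG replicate 2 and 0.093 without hCG replicate 1. With the replicate block edgeR called 0 loops, with 62 below 0.05 unadjusted, and gave -0.01 at Egf and -0.32 at Hbegf (SE 0.31, adjusted p = 0.99). Deviations of same-numbered libraries correlated at -0.01. This cannot settle whether the numbers pair the libraries, since counting error at single loops can hide a shared effect. Counts of 14 to 59 contacts at most group-confined loops limit what single ratios show.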
